A study of Mus musculus with 6 samples.

Results

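The forkhead transcription factors described here are 9 genes of the 32531 in the count table: Foxb1, Foxa1, Foxa2, Foxp1, Foxp2, Foxp4, Foxo1, Foxo3 and Foxj1. They were taken by symbol as forkhead genes expressed in brain, with Foxb1, Foxa1 and Foxa2 named first, and they were chosen by measured values: the IP and input counts of the same 6 libraries were in view. Their values in this contrast are therefore a description, and no p-value is given for them. The 35 other forkhead genes in the table were listed by family name, and the 18 that passed the filter on low counts were tested.

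The study used translating ribosome affinity purification (TRAP), in which an EGFP-tagged ribosomal protein, Rpl10a, is made only in chosen cells, so that antibodies against EGFP pull down the polysomes of those cells. The mice were untreated adult controls of 1 transgenic line, Lhx5-TRAP DT154, in which the tag is under the control of Lhx5, a LIM homeodomain factor, and every library came from midbrain of this line. The immunopurified RNA (IP) gave 3 libraries, and 3 others are titled input; a further label calls the input libraries unbound, so they may be the homogenate or what the beads left behind. How many animals went into a library, and whether replicates were separate animals, is not given in the sources used here, so p-values measure only the spread between these libraries, which may be technical.

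Forkhead proteins bind DNA through a winged-helix domain, and the letter in each name marks a subfamily. FoxA proteins are pioneer factors that open chromatin; in the ventral midline of the embryonic brain they act in the floor plate and in dopamine neurons, and in the subthalamic nucleus they mark glutamatergic neurons. Foxb1 marks the mammillary and thalamic lineages. FoxP proteins pair through a leucine zipper and act in the striatum, cortex, thalamus and Purkinje cells. FoxO proteins are shut out of the nucleus when insulin signalling through Akt is active, and Foxj1 switches on the genes of motile cilia.

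Between 38058239 and 45841499 reads per library were assigned to genes. In CPM (counts per 1000000 of the TMM-scaled library total) 3 counts equal 0.0688 to 0.0741, a floor that covers counting error only. Lhx5 itself had 46.8, 56.0 and 49.1 CPM in IP libraries 1, 2 and 3, and 3.92, 3.81 and 2.20 CPM in input libraries 1, 2 and 3. Libraries stood apart by markers of other regions. IP library 2 had 77.9 CPM of the Purkinje cell gene Pcp2, against 0.167 and 0.117 CPM in IP libraries 1 and 3, and 12 of 15 tested Purkinje genes were highest there among the IP libraries. Input library 3 had 73.3 CPM of the striatal dopamine receptor gene Drd1, against 11.2 and 3.37 CPM in input libraries 1 and 2. Input library 3 also had 1266 CPM of the choroid plexus gene Ttr, against 338 and 7.24 CPM in the others, and the least Slc6a3, which encodes the dopamine transporter, at 4.99 CPM against 62.4 and 52.3 CPM. The most abundant genes of these lists did not all follow: Pde10a (striatal) was at 468 CPM in input library 3 against 115 and 68.3 CPM and Enpp2 (choroid) was also highest there, but Aldoc and Pcp4l1 (Purkinje) were at 606 and 313 CPM in IP library 2, not above both other IP libraries, and Calb1 (dopamine list) was highest among inputs in library 3 at 126 CPM. Genes that all neurons use were higher in IP (16 of 18, median log2 fold change 0.86), and those of oligodendrocytes (14 of 14) and microglia (13 of 14) were lower. All genes tested together gave 26.0% higher and 27.9% lower at an adjusted p of 0.05, with a median of -0.01.

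All 9 genes passed the filter on low counts. Of them, 4 were past an adjusted p of 0.05 upward in IP (Foxb1, Foxa1, Foxa2 and Foxp4), 3 downward (Foxp1, Foxp2 and Foxo1), and Foxo3 and Foxj1 were past it in neither direction. Of all 17197 genes tested, 26.0% were past it upward and 27.9% downward, 53.9% together. In the same 4 genes every IP library was above every input library, as in 30.7% of all genes, and in the same 3 every IP library was below, as in 32.8%. Since the contrast had a part in choosing the genes, nothing is read from these shares. In such bulk RNA, fewer cells of a type and less RNA per cell cannot be told apart.

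**Figure D1:**
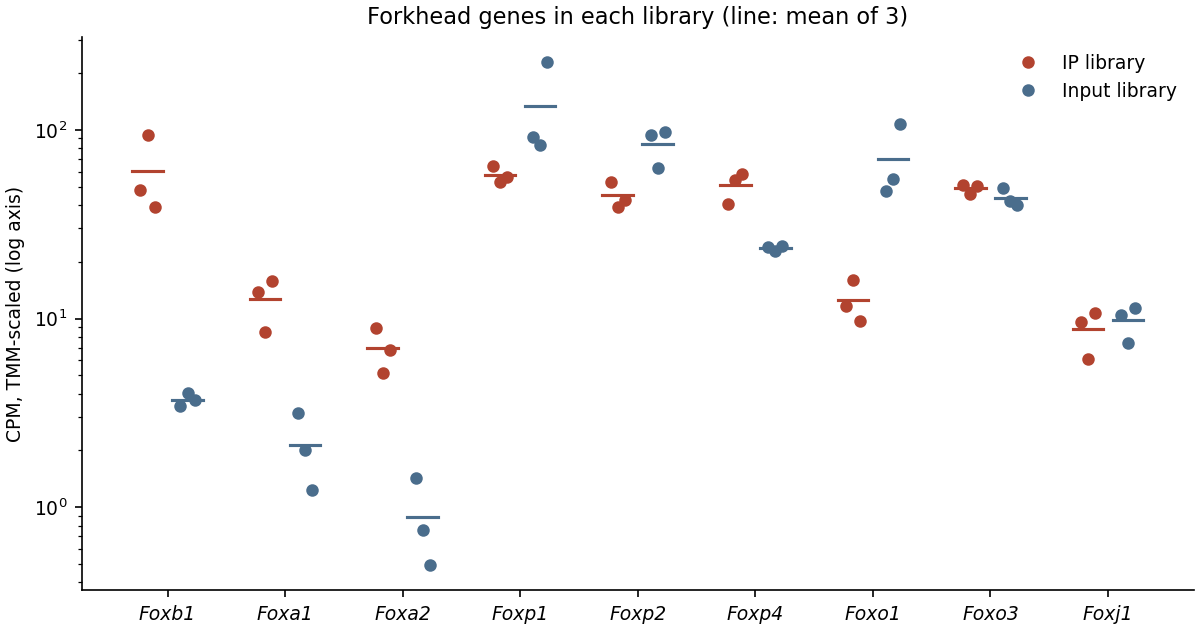
CPM (log axis) of the 9 forkhead genes in each of the 3 IP libraries (left of each pair) and 3 input libraries (right); points are libraries and lines are means. Foxb1, Foxa1, Foxa2 and Foxp4 had all IP points above all input points, and Foxp1, Foxp2 and Foxo1 had them below.

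Foxb1 was the forkhead gene of the 9 that differed most between IP and input. It lies on chromosome 9 from 69757710 to 69760940 (GENCODE M21, GRCm38, also called mm10). Foxb1 had 48.0, 93.6 and 38.8 CPM in IP libraries 1, 2 and 3, and 3.44, 4.01 and 3.70 CPM in input libraries 1, 2 and 3. The groups did not overlap, and IP library 2 stood well above the other IP libraries. Foxb1 averaged 60.1 ± 29.3 CPM in IP and 3.72 ± 0.287 CPM in input (SD, n = 3 each), a log2 fold change of 4.01 (SE 0.34), and of 3.52 without IP library 2. A noncoding gene on the opposite strand, B230323A14Rik, overlaps Foxb1, and the strand setting of the counting is not given in the sources used here. That neighbour had 21.8, 36.1 and 20.2 CPM in IP and 1.78, 2.75 and 1.53 CPM in input, a log2 fold change of 3.68 (SE 0.31). The 2 genes have separate counts, but with the strand setting unknown some reads of 1 may be counted for the other.

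The FoxA genes were higher in IP at much lower levels. Foxa1 lies on chromosome 12 from 57540628 to 57546916 and Foxa2 on chromosome 2 from 148042877 to 148046969. Foxa1 had 13.8, 8.45 and 15.9 CPM in IP libraries 1, 2 and 3, and 3.15, 2.02 and 1.23 CPM in input libraries 1, 2 and 3. Foxa2 had 8.96, 5.15 and 6.81 CPM in IP, and 1.42, 0.757 and 0.494 CPM in input. Neither gene overlapped between groups, both were lowest in IP library 2 among the IP libraries, and both were lowest in input library 3 among the inputs. The log2 fold change was 2.57 (SE 0.37) for Foxa1 and 2.97 (SE 0.42) for Foxa2, and without input library 3 it was 2.26 and 2.65. The counts behind Foxa2 in input were 59, 33 and 20, the fewest of the 9 genes. Per kilobase, Foxa1 made up 56.2% ± 5.42 of the FoxA signal in IP and 63.6% ± 2.16 in input (mean ± SD of 3 libraries), a difference of the size of the spread among IP libraries.

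The promoters of Foxa1 and Foxa2 are shown because these 2 related genes moved together while each sits on its own chromosome. The sequences are from RefSeq (GRCm38.p6), from 250 bases before to 50 after a transcription start, and run 5′ to 3′ on the minus strand of chr12:57546062-57546361 and chr2:148046920-148047219. By GENCODE M21 the Foxa1 gene starts at 57546916 on that strand, so its RefSeq window lies inside the gene, downstream of that start. Capitals mark the forkhead core TGTTTAC, read here on its other strand as GTAAACA.
Foxa1: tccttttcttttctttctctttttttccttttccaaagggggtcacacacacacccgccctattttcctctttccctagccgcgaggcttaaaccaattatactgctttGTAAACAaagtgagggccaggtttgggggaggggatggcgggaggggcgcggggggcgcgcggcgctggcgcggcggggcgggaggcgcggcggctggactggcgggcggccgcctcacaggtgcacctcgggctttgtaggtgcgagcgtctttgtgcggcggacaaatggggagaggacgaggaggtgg
Foxa2: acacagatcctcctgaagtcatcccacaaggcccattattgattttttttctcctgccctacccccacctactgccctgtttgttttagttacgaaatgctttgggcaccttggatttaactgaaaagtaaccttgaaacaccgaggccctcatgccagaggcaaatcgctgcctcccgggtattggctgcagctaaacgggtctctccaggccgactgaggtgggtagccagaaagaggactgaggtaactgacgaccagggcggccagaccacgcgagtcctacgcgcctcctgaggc
The Foxa1 promoter held that core at base 110, counted from 1 at the 5′ end. None of the 3 promoters that RefSeq lists for Foxa2 held it, or the LIM homeodomain core TAATTA. Both strands were searched and the motifs did not overlap. Of 32851 promoters of the same length, 3.65% held the forkhead core and 5.29% held TAATTA. Of the 9 genes 6 matched the promoter table, with 10 promoters, and the only other match was TAATTA in a Foxp1 promoter. A match is a run of letters and says nothing of binding.

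Several dopamine neuron genes that FoxA proteins are tied to were lower in IP, while Foxa1 and Foxa2 were higher. Of 16 tested genes in a list of floor plate and midbrain dopamine genes, 3 were higher in IP (18.8%) and 8 lower (50%), with a median log2 fold change of -0.86. For all genes tested the values were 26.0%, 27.9% and -0.01. Without IP library 2 and input library 3 together, 1 of 18 was higher. Aldh1a1, the aldehyde dehydrogenase of a dopamine neuron subset, was lower in IP at 18.7 ± 3.95 CPM against 154 ± 56.9 CPM in input (log2 fold change -3.04, SE 0.30). Slc18a2, the vesicular monoamine transporter, was at -1.74 (SE 0.45) and Nr4a2, a nuclear receptor of dopamine neurons, at -0.89 (SE 0.21). Shh, the signal of the floor plate, rose by 1.28 (SE 0.29) and Slit2, a midline guidance cue, by 1.02 (SE 0.26). The adjusted p of these 5 genes was 0.0115 or less in edgeR's quasi-likelihood F test, Benjamini-Hochberg adjusted. Slc18a2 was not past the threshold without IP library 2 (-1.74) or IP library 3 (-1.59), nor Slit2 without IP library 2 (0.84). Aldh1a1, Slc18a2 and Nr4a2 are also dopamine neuron markers. Input library 3 was the lowest input library for 12 of 14 tested dopamine neuron markers, and no marker of that list was at 0 in any library. The summed CPM of these markers ran from 465 to 678 in IP and from 448 to 737 in input, but Calb1 and Dlk1 carried much of it: Calb1, also a Purkinje gene, had 319 of the 678 CPM in IP library 2. Of the 14 tested markers 6 were lower in IP (42.9%), 1 higher (7.14%) and 7 not past the threshold, against 27.9% and 26.0% of all genes. The lower ones include Th, which makes the dopamine precursor, at -2.05 (SE 0.32) and Ddc, the next enzyme, at -1.73 (SE 0.27). Slc6a3 was at -3.05 (SE 0.82), though its groups overlapped, as did those of Slc18a2. The marker that rose was Sncg, gamma-synuclein, at 3.02 (SE 0.41), with 169 of the 465 CPM in IP library 3. The adjusted p of Th, Ddc, Slc6a3 and Sncg was 0.0155 or less in the same test. The part of dopamine neurons in the FoxA values was not tested.

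Many genes of a list for the mammillary and subthalamic regions, all transcription factors but for the ligand gene Wnt8b, were higher in IP beside Foxb1, Foxa1 and Foxa2. Of 16 tested genes of that list 10 were higher (62.5%), 1 lower (6.25%) and 5 not past the threshold, against 26.0% and 27.9% of all genes tested. The median log2 fold change of the list was 2.69. The list was not split by region, so these counts do not say which region's genes rose. The 10 include Lhx5 (3.93, SE 0.23), whose regulatory sequences drive the tag, and Wnt8b (-0.53, SE 0.53) is among the 5. The list was drawn up with Sim1, Nkx2-1, Uncx and Lhx1 already known to be high in these IP libraries, so its direction is not independent evidence. For the same reason no p-value is given for Nkx2-1 and Lhx1. Nkx2-1, a ventral forebrain homeodomain factor, averaged 71.3 ± 30.5 CPM in IP and 8.0 ± 6.97 CPM in input. Its log2 fold change was 3.16 (SE 0.59), or 4.15 without input library 3. Lhx1, the close relative of Lhx5, averaged 58.6 ± 8.77 CPM in IP and 6.36 ± 2.78 CPM in input (log2 fold change 3.20, SE 0.32). Lmx1a, a LIM homeodomain factor shared by dopamine and subthalamic lineages, was the gene that fell, by 2.73 on the log2 scale (SE 0.46). Its adjusted p was 0.00137 in edgeR's quasi-likelihood F test, Benjamini-Hochberg adjusted.

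The FoxP genes divided. By the same annotation, Foxp1 lies on chromosome 6 from 98925338 to 99522721, Foxp2 on chromosome 6 from 14901349 to 15441977 and Foxp4 on chromosome 17 from 47867133 to 47924645. Foxp4, the least studied of them in brain, had 40.6, 53.9 and 58.5 CPM in IP libraries 1, 2 and 3, and 23.8, 22.7 and 24.2 CPM in input libraries 1, 2 and 3. The groups did not overlap and the input libraries lay close together; the log2 fold change was 1.11 (SE 0.15). Foxp2, the gene behind an inherited speech disorder in humans, had 52.9, 39.1 and 42.7 CPM in IP, and 93.3, 63.0 and 97.4 CPM in input. All of its IP values were below its input values, with a log2 fold change of -0.91 (SE 0.19). Foxp1, rich in striatal projection neurons, had 64.0, 52.9 and 56.1 CPM in IP, and 91.8, 82.7 and 229 CPM in input. Its groups did not overlap either, but input library 3 stood far above the other inputs, and the log2 fold change of -1.22 (SE 0.35) was -0.62 without that library. It was not past the threshold without IP library 2 or without IP library 3, at -1.19 in both cases. With replicate number as a block, where the numbers mark shared sequencing lanes, Foxp1 was at -1.06 and no longer past the threshold, which left 2 genes lower.

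Per kilobase of exon the leading FoxP gene was not the same in IP and input. Foxp3, with at most 8 counts in a library, was left out. These shares lean on exon length, which was 13.75 kb for Foxp1, 16.35 kb for Foxp2 and 4.926 kb for Foxp4. Without division by length Foxp1 averaged 57.7 CPM in IP and Foxp4 51, with Foxp4 above Foxp1 in IP libraries 2 and 3. In input Foxp1 averaged 134 CPM and Foxp4 23.6 CPM. Foxp4 made up 59.6% ± 7.36 of the summed FoxP level in IP and 25.9% ± 7.22 in input (SD over 3 libraries). Foxp1 made up 24.4% ± 3.87 in IP and 46.9% ± 11.8 in input, and Foxp2 made up 16.0% ± 3.49 in IP and 27.1% ± 5.77 in input. The summed level itself was 17.3 ± 1.22 CPM per kb in IP and 19.7 ± 6.88 in input, closer than the spread among input libraries.

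FoxP genes took different places in the 2 libraries that stood apart. Input library 3, where Foxp1 was highest, was also the highest input library for 16 of 17 tested striatal genes. Their summed CPM was 485 to 623 in IP, and 675, 440 and 2047 in input libraries 1, 2 and 3. The sum does not stand for every marker: 9 of the 17 were lower in IP (52.9%, against 27.9% of all genes), 1 higher and 7 not past the threshold. Drd1 had 4.13, 3.76 and 0.653 CPM in IP libraries 1, 2 and 3. No striatal marker was at 0 in any library, and the part of striatal RNA in the Foxp1 values was not tested. Cortical and hippocampal genes were lower in IP too, 10 of 13 tested (76.9%, against 27.9% of all genes), with 1 higher. Their summed CPM was 351 to 560 in IP and 1272 to 1644 in input, and their part was not tested either. IP library 2, where Purkinje genes were highest, had the lowest Foxp2 of the IP libraries. Without IP library 2 the log2 fold change of Foxp2 was -0.85. The summed CPM of Purkinje genes was 1903, 3154 and 1997 in IP libraries 1, 2 and 3 and 1711 to 2067 in input, with no marker at 0, although the astrocyte gene Aldoc is among them. Aldoc and Pcp4l1 had 579 and 463 of the 1903 CPM in IP library 1, where Pcp2 had 7 counts. Of 10 tested thalamic and habenular genes, some of whose neurons make Foxp2, 7 were lower in IP (70%, against 27.9% of all genes) and 2 higher. Their summed CPM was 644 to 887 in IP and 1166 to 1566 in input. The thalamic factor Gbx2 was near the floor in both groups, with 0, 0 and 5 counts in IP and 3, 4 and 6 counts in input. The part of thalamic and habenular neurons in the Foxp2 values was not tested.

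**Figure D2:**
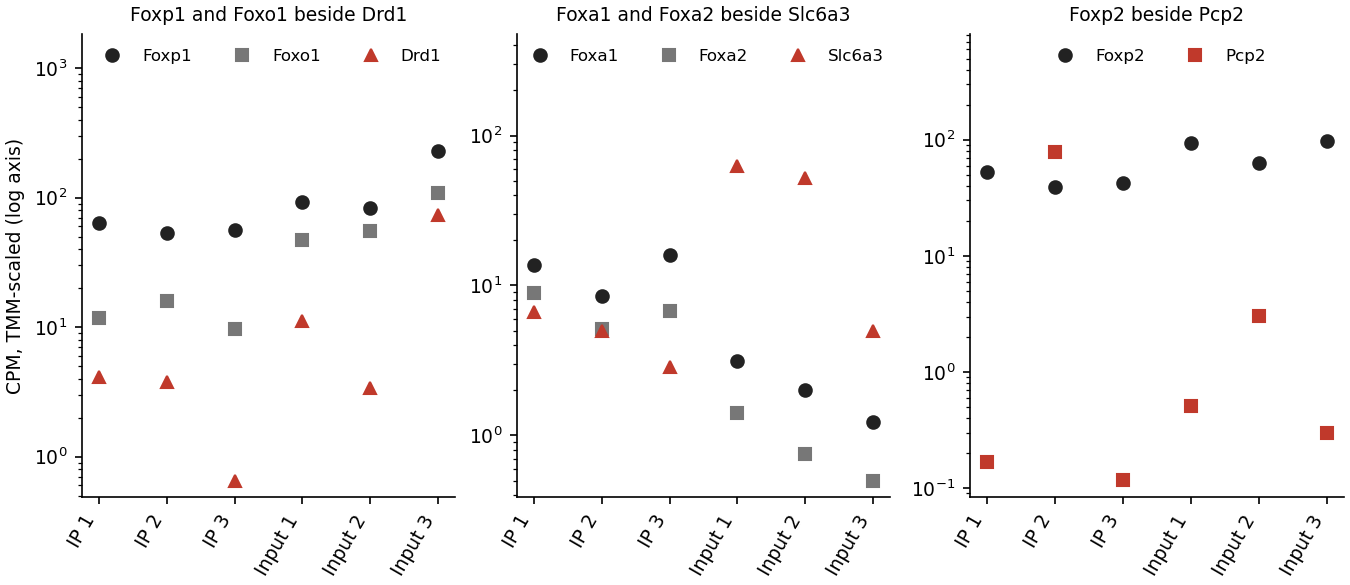
CPM (log axis) per library, the 3 IP libraries left of the 3 input libraries, of Foxp1 and Foxo1 beside the striatal gene Drd1, of Foxa1 and Foxa2 beside the dopamine neuron gene Slc6a3, and of Foxp2 beside the Purkinje gene Pcp2. Foxp1, Foxo1 and Drd1 were highest in input library 3, and Foxp2 was at 39.1 CPM in IP library 2, where Pcp2 was at 77.9 CPM.

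Of 18 tested genes for known partners of FoxP proteins, 4 were higher in IP (22.2%), 5 lower (27.8%) and 9 not past the threshold, with a median of -0.15. These shares lie near the 26.0% and 27.9% of all genes tested, so nothing particular to the partners is read from them. With upper-quartile scaling 2 were higher and 9 lower. Ctbp1, a corepressor that binds Foxp1 and Foxp2, rose by 1.04 (SE 0.15), and Gatad2a, a subunit of the NuRD repressor complex, by 0.45 (SE 0.11). Its paralogue Gatad2b was at -0.45 (SE 0.12), the Polycomb gene Phc1 at -0.79 (SE 0.15) and the nuclear receptor gene Nr2f1 at -0.71 (SE 0.13). The adjusted p of these genes was 0.0127 or less in edgeR's quasi-likelihood F test, Benjamini-Hochberg adjusted. Gatad2b was not past the threshold without IP library 1 (-0.39). Of 15 genes known as FoxP targets 1 was higher (6.67%), 4 lower (26.7%) and 10 not past the threshold, with a median of -0.52. The lower share lies near the 27.9% of all genes tested. The number higher was 4 without IP library 3, 2 without input library 1 and 3 with the replicate block. Rora, an orphan nuclear receptor of thalamus and Purkinje cells, was at -1.22 (SE 0.21), Mef2c, an activity-dependent factor of cortical neurons, at -2.53 (SE 0.34), and Tiam1, a Rac activator, at -1.18 (SE 0.18). Nos1, neuronal nitric oxide synthase, rose by 0.92 (SE 0.22), and all 4 had an adjusted p of 0.00708 or less by the same test. Rora and Mef2c are also in the marker lists of thalamus and cortex.

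**Figure D3:**
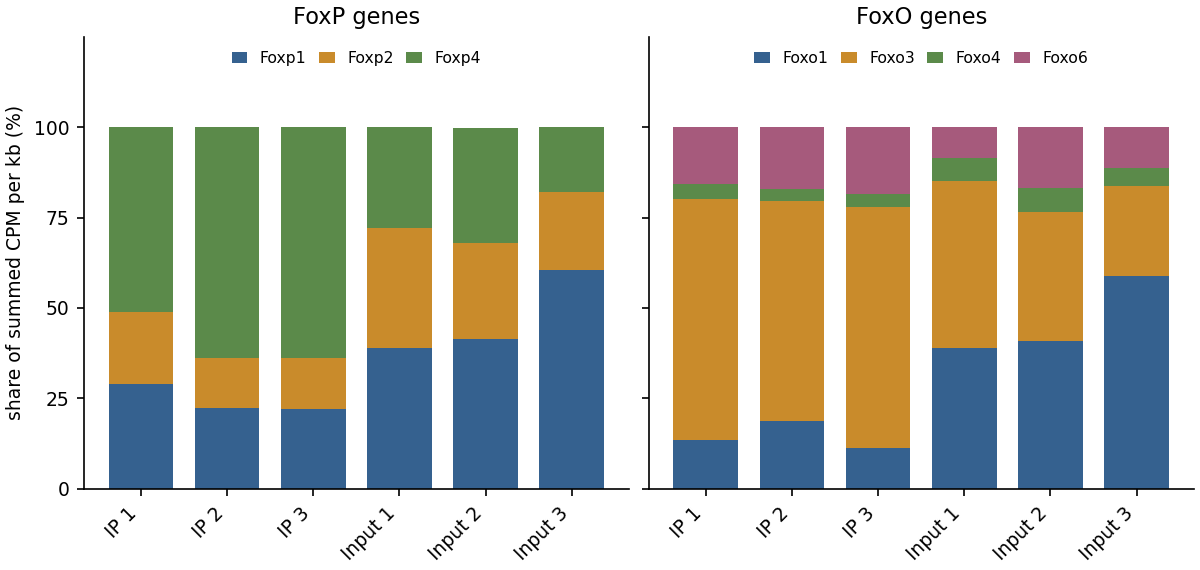
Share (%) of each FoxP gene and each FoxO gene in the summed CPM per kilobase of its subfamily, in the 3 IP libraries (left) and 3 input libraries (right). Foxp4 and Foxo3 led in every IP library, while Foxp1 led in every input library and Foxo1 in input libraries 2 and 3.

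The FoxO genes divided as well. Foxo1 lies on chromosome 3 from 52268336 to 52353221 and Foxo3 on chromosome 10 from 42181841 to 42276755. Foxo1 had 11.7, 16.0 and 9.70 CPM in IP libraries 1, 2 and 3, and 47.5, 55.1 and 108 CPM in input libraries 1, 2 and 3. The groups were far apart, with input library 3 again the highest, and the log2 fold change was -2.49 (SE 0.33), or -2.05 without that library. Foxo3 had 50.9, 45.7 and 50.4 CPM in IP, and 49.4, 41.8 and 39.9 CPM in input. Its groups overlapped, with a log2 fold change of 0.17 (SE 0.12). Per kilobase, Foxo3 made up 64.8% ± 3.26 of the FoxO signal in IP and 35.6% ± 10.7 in input, and Foxo1 14.4% ± 3.86 in IP and 46.2% ± 11.0 in input. The share of Foxo6, a FoxO gene that stays mostly in the nucleus, was 17.1% ± 1.39 in IP and 12.2% ± 4.25 in input. The summed FoxO level was 9.99 ± 0.0916 CPM per kb in IP and 16.9 ± 3.72 in input.

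Of 32 insulin, PI3K and other FoxO regulator genes tested, 9 were higher in IP (28.1%), 11 lower (34.4%) and 12 not past the threshold, with a median of -0.11. These shares are near the 26.0% and 27.9% of all genes tested, and nothing particular to the regulators is read from them. With upper-quartile scaling or library totals 5 were higher. The 14-3-3 genes Ywhae and Ywhag, whose proteins hold phosphorylated FoxO in the cytoplasm, rose by 0.32 (SE 0.09) and 0.74 (SE 0.11). Crebbp, an acetyltransferase, was at -0.41 (SE 0.11), Pik3r1, the regulatory subunit of PI3K, at -0.55 (SE 0.13), and Sirt2, a deacetylase rich in oligodendrocytes, at -0.69 (SE 0.13). These 5 genes had an adjusted p of 0.016 or less in edgeR's quasi-likelihood F test, Benjamini-Hochberg adjusted. Of 24 genes known as FoxO targets in various tissues 8 were higher (33.3%), 12 lower (50%) and 4 not past the threshold, with a median of -0.23. The shares of all genes tested were 26.0% and 27.9%. Gabarapl1 and Map1lc3b, which coat autophagosomes, rose by 1.18 (SE 0.13) and 1.02 (SE 0.15). Insr, the insulin receptor, was at -0.72 (SE 0.16), Sesn1, a stress-induced sestrin, at -0.38 (SE 0.11), and Klf6, a zinc finger factor, at -1.12 (SE 0.11), with an adjusted p of 0.018 or less for these target genes by the same test. Ywhae was not past the threshold without input library 1 (0.31) or input library 2 (0.33), nor Sesn1 without input library 2 (-0.37). Insr, Irs2 and Pik3ca stand in both lists.

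Foxj1 had similar levels in IP and input, while many genes of a motile cilia list were lower in IP. That list also holds regulators that act with or upstream of Foxj1, so it is not a list of Foxj1 targets alone. Foxj1 lies on chromosome 11 from 116330704 to 116335399. It had 9.56, 6.08 and 10.7 CPM in IP libraries 1, 2 and 3, and 10.5, 7.43 and 11.4 CPM in input libraries 1, 2 and 3. The groups overlapped, with a log2 fold change of -0.15 (SE 0.26), and the value was 0.02 without IP library 2. Of 38 tested motile cilia genes 0 were higher in IP, 23 were lower (60.5%) and 15 were not past the threshold. Of all genes tested, 26.0% were higher and 27.9% lower. The median of the cilia genes was -1.68, and 33 of the 38 had a log2 fold change below that of Foxj1. Without input library 3, 15 were lower, and without IP library 3, 1 of 39 was higher. Of the 40 cilia genes in the table, 3, 1 and 6 were at 0 in IP libraries 1, 2 and 3, and 0 in any input library. Some of the lower genes passed the low-count filter only through input, so the filter favoured that direction for them. Rfx3, a factor that acts with Foxj1, was lower in IP at 23.8 ± 4.71 CPM against 126 ± 21.0 CPM in input (log2 fold change -2.40, SE 0.19). Ccdc39, a ruler protein of the axoneme, was at -0.93 (SE 0.19) and Rsph4a, a radial spoke protein, at -1.16 (SE 0.31), and the adjusted p of the 3 genes was 0.0132 or less in edgeR's quasi-likelihood F test, Benjamini-Hochberg adjusted.

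Markers of ependyma and choroid plexus, whose cells carry motile cilia, set input library 3 apart, and Foxj1 did so far less. Input library 3 was the highest input library for 15 of 16 tested markers of these cells and for 32 of the 38 cilia genes. The summed CPM of the markers was 71.3 to 134 in IP, and 760, 288 and 1871 in input libraries 1, 2 and 3. Foxj1 in input library 3 was 11.4 CPM against 10.5 CPM in input library 1. In IP, of the 17 markers in the table, 2 were at 0 in library 2 and 3 in library 3 (of Folr1, Slc4a5, Tmem72 and Ccdc153), while Foxj1 had 249 to 458 counts in IP libraries. The part of these cells in the Foxj1 values was not tested.

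**Figure D4:**
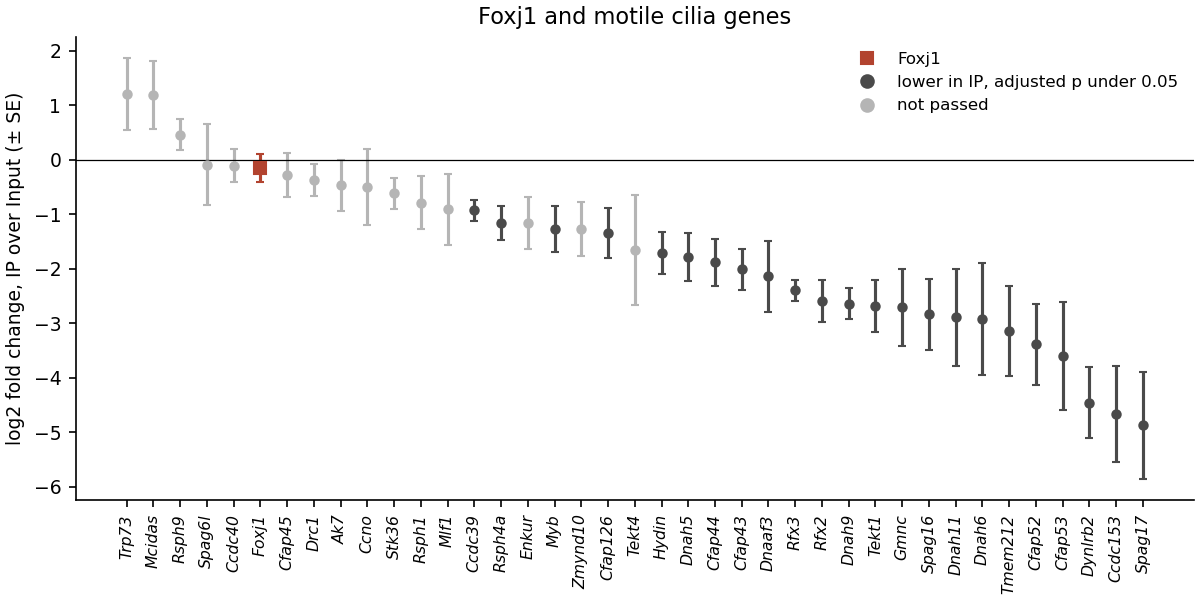
Log2 fold change of IP over input with its SE for Foxj1 (square) and the 38 tested motile cilia genes (circles), in falling order; dark circles passed an adjusted p of 0.05 and light ones did not. Foxj1 lay at -0.15, and the cilia genes ran from 1.21 to -4.87 with a median of -1.68.

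Between genes, levels were compared as CPM per kilobase of annotated exon. In IP the order was Foxb1 (20.2 ± 9.83), Foxp4 (10.4 ± 1.89), Foxo3 (6.47 ± 0.379), Foxp1 (4.19 ± 0.417), Foxa1 (3.82 ± 1.15), Foxj1 (3.35 ± 0.915), Foxa2 (2.94 ± 0.806), Foxp2 (2.75 ± 0.438) and Foxo1 (1.44 ± 0.374, SD, n = 3 each). Neighbours from Foxp1 down to Foxp2 overlapped between libraries, and the other neighbours did not. In input, Foxp1 (9.78 ± 5.96), Foxo1 (8.09 ± 3.79), Foxo3 (5.77 ± 0.668), Foxp2 (5.17 ± 1.15) and Foxp4 (4.78 ± 0.159) came first, and each neighbouring pair of these 5 overlapped. Foxj1 (3.72 ± 0.786), Foxb1 (1.25 ± 0.0963), Foxa1 (0.641 ± 0.289) and Foxa2 (0.375 ± 0.201) followed in input. Of these lower 4, only Foxa1 and Foxa2 overlapped. Foxb1 thus stood at the top of the order in IP and seventh in input, and Foxo1 stood last in IP and second in input. Isoforms of a gene were pooled, so isoform choice can move its place.

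Of the 35 other forkhead genes, 18 passed the filter on low counts. Of these 5 were higher in IP (27.8%), 9 lower (50%) and 4 not past the threshold, with a median log2 fold change of -0.57. Among all genes tested the shares were 26.0% and 27.9% and the median -0.01, so nothing is read from the upward share. The filter passes a low gene when it is high in 1 group, so the 18 are not all of the family. Foxb2, Foxd3, Foxc2 and Foxf2 had few counts in 1 group and passed mainly through the other, so these counts lean on the filter. Foxk2, a broadly used repressor of autophagy genes, rose by 0.44 (SE 0.11) and Foxj3 by 0.34 (SE 0.11), while Foxk1, the paralogue of Foxk2, was at -0.54 (SE 0.12). With upper-quartile scaling Foxk2 (0.29) and Foxj3 (0.19) were not past the threshold, and Foxj3 was not past it without IP library 1, IP library 2, input library 1 or input library 2 either (0.28 to 0.37). Foxn3, a checkpoint repressor, was at -0.44 (SE 0.13), and was not past the threshold without IP library 1, input library 1 or input library 2 (-0.42 to -0.38). Its relative Foxn2 was at -2.02 (SE 0.16) and Foxo4 at -1.44 (SE 0.28). Foxr2 rose by 1.20 (SE 0.22), with 7.12, 6.08 and 6.20 CPM in IP libraries 1, 2 and 3 and 2.38, 3.09 and 2.96 CPM in input libraries 1, 2 and 3. Their adjusted p was 0.0274 or less in edgeR's quasi-likelihood F test, Benjamini-Hochberg adjusted. Foxj2 (0.01, SE 0.13), Foxo6 (-0.27, SE 0.30), Foxm1 (-0.60, SE 0.37) and Foxq1 (-0.63, SE 0.54) were not past the threshold and are named after their values were seen; Foxm1 was past it, at -0.99, without IP library 1.

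**Figure D5:**
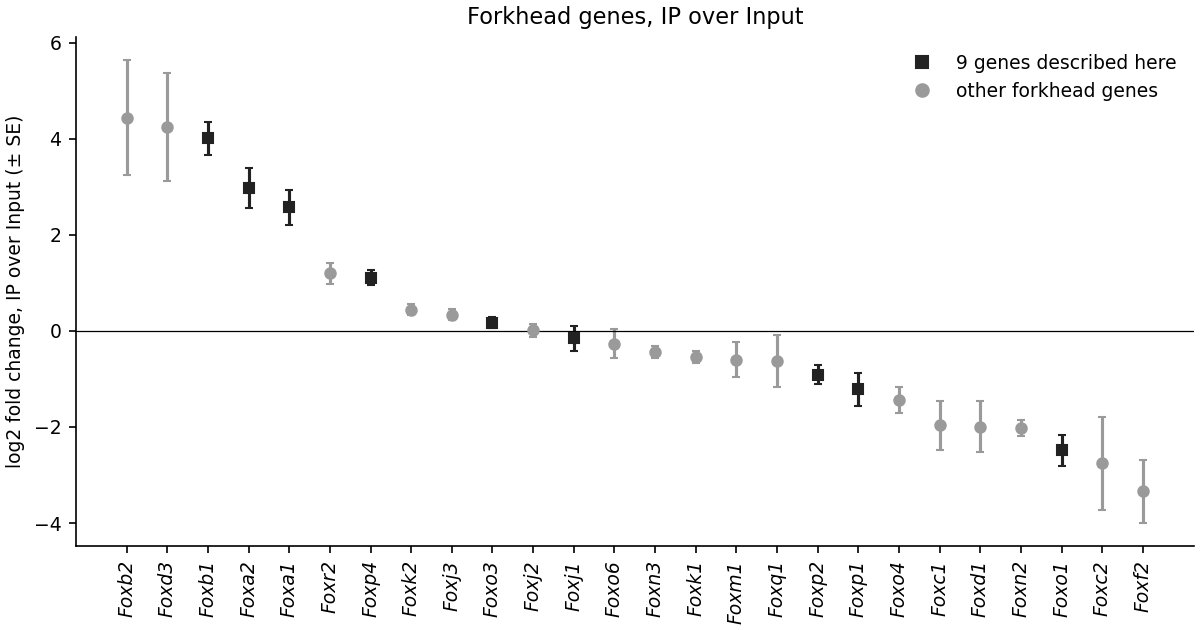
Log2 fold change of IP over input with its SE for 26 forkhead genes that passed the low-count filter, in falling order; dark squares are the 9 genes described here and grey circles 17 others. Foxb2 (4.44), Foxd3 (4.24) and Foxb1 (4.01) stand at the upper end, and Foxc2 (-2.76) and Foxf2 (-3.34) at the lower end.

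Foxc1, Foxc2 and Foxd1, known from meninges and vessel walls, were lower in IP, at -1.97 (SE 0.50), -2.76 (SE 0.97) and -2.0 (SE 0.53). Their adjusted p was 0.0398 or less in edgeR's quasi-likelihood F test, Benjamini-Hochberg adjusted. Foxc2 rested on 6, 11 and 0 counts in IP and 57, 49 and 13 counts in input. It thus passed the filter mainly through input, and its adjusted p is a description only. Foxc2 was not past the threshold without IP library 1, IP library 3, input library 1 or input library 2, and Foxd1 without input library 2. Without IP library 2 Foxc2 stood at -3.70, and without IP library 3 at -2.16. Of 11 tested mural and fibroblast markers other than forkhead genes, 10 were lower in IP (90.9%, against 27.9% of all genes tested). Their summed CPM was 16.7 to 19.7 in IP and 177 to 274 in input, with no marker at 0. The part of these cells in the values of Foxc1, Foxc2 and Foxd1 was not tested.

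Foxb2, the only other member of the FoxB subfamily, was higher in IP as Foxb1 was, at low levels. Foxb2 had 15, 193 and 35 counts in IP libraries 1, 2 and 3, and 0, 4 and 7 counts in input libraries 1, 2 and 3. It rose by 4.44 (SE 1.20, adjusted p 0.0136, edgeR quasi-likelihood F test, Benjamini-Hochberg adjusted). Its input counts were all below the filter's minimum of 10, so Foxb2 passed through IP and its p-values are descriptions only. Both FoxB genes were highest in IP library 2, where Purkinje genes were highest, and the part of those cells was not tested. Without IP library 2 the edgeR value of Foxb2 was 2.67 (adjusted p 0.0708), and without input library 3 it was 5.32. Over its alternatives the adjusted p of Foxb2 ran from 0.000146 by DESeq2 to 0.0708, with 0.0525 by limma-voom. Foxd3, a neural crest factor outside the rule for named genes and named after its values were seen, had 23, 16 and 63 counts in IP and 5, 0 and 0 counts in input (log2 fold change 4.24, SE 1.12, and 3.48 without IP library 3). Without input library 1 no input count of Foxd3 remains. Foxf2, a pericyte factor also named after its values were seen, had 5, 1 and 3 counts in IP and 27, 39 and 29 counts in input (log2 fold change -3.34, SE 0.65).

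The genes most like each forkhead gene across the 6 libraries were found by the root-mean-square difference between log2 CPM profiles, each centred on its own mean, among 11638 genes. Of the genes nearest to Foxb1, Insm2, a zinc finger factor, stood at 0.378. Foxa1 was nearest to Sncg, gamma-synuclein (0.255), and to Actrt3 (0.28), and Foxa2 to Cartpt, the CART peptide gene (0.298), and again Sncg (0.304). Sncg had 117, 71.3 and 169 CPM in IP libraries 1, 2 and 3 and 22.2, 13.8 and 8.05 CPM in input libraries 1, 2 and 3, with the lowest IP value in library 2 and the lowest input value in library 3, as the FoxA genes had. Foxp1 was nearest to Dclk3 (0.142) and Id4 (0.147), Foxo1 to Spata13 (0.18) and Kcnip2 (0.182), Foxp2 to Krcc1 (0.0762) and Rgs12 (0.105), and Foxp4 to Med30 (0.0386) and Yrdc (0.0434). Foxo3 was nearest to Enah (0.0427) and Nacad (0.045), and Foxj1 to Cdkal1 (0.0947) and Chaf1a (0.0961). A smaller number is a closer match, and the gap between IP and input is part of every profile.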

How the data were processed

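RNA of 6 midbrain libraries, 3 IP and 3 input by their titles, was analysed. The authors deposited unnormalized counts of reads for each gene symbol, aligned with STAR 2.0.0e to mm10 and counted with HTSeq per the submitters' processing notes. For annotation and strand setting, the sources used here give nothing. Reads with more than 1 alignment took 44.2% ± 0.402 in IP and 32.5% ± 0.595 in input (n = 3 each, SD), and ambiguous reads 1.63% ± 0.0461 in IP and 9.35% ± 1.48 in input. These summary lines and the entry for unknown genes stayed out of totals and tests.

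Low counts were removed with filterByExpr (minimum count 10, minimum total 15), which kept 17197 of 32531 genes. TMM-scaled counts were tested two-sided with edgeR 4.0.16 in R 4.3.3 (robust quasi-likelihood fit, group as the only term), with Benjamini-Hochberg adjustment over all tested genes and a threshold of 0.05. The SE is the log2 fold change divided by the square root of F. Profiles used log2 CPM with a prior count of 2. Exon lengths and positions are from GENCODE M21. Marker sums leave out forkhead genes. The model was tested on simulated data.

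The 9 genes and all gene lists were chosen with earlier results of these data known. Named were the 9 genes, up to 12 other forkhead genes past the threshold by level, of each list up to 3 abundant genes in the commoner direction and 2 in the other, and the 2 nearest profiles of each gene; a few genes under this rule are not reported here. Sim1, Uncx, Gbx2, Irs2, Pik3ca, Folr1, Slc4a5, Tmem72, Ccdc153 and B230323A14Rik were named after their values were seen.

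Replicate numbers mark shared lanes in the labels, so they pair IP with input libraries by lane. Deviations from group means correlated at 0.155, 0.0744 and 0.0506 within pairs. Between IP and input libraries of different numbers they correlated at -0.107 to 0.0207. The main fit had no replicate block because the labels state no paired design beyond the lane. Within-group correlations were 0.971 to 0.985, and no library was a copy of another. Alternatives were other scalings, filters and tools (DESeq2 1.42.0, limma 3.58.1), a replicate block, a threshold of 0.01 and leaving out libraries.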

Additional observations from a re-analysis of the deposited data

How the results depend on the processing

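Of the 9 forkhead genes, 4 were higher under every alternative run. Of the 3 lower ones, Foxp1 was not past the threshold without a low-count filter, with the replicate block, at a threshold of 0.01, and without IP library 2 or IP library 3, where the count was 2; the replicate block changed no other call of the 9. Foxj1 stood at -0.15 and turned to 0.02 without IP library 2 and 0.13 without IP library 2 and input library 3 together, with a range of -0.31 to 0.02 when 1 library was left out, and it was past the threshold in none. Of the other forkhead genes, 5 were higher, against 3 with upper-quartile scaling, 2 with a filter at a CPM of 1 in 3 libraries, where 12 were tested, and 2 at a threshold of 0.01. Leaving out 1 library gave 3 to 5, with 3 without IP library 2. Foxj2, at 0.01, stood at -0.02 with RLE scaling and with DESeq2, at -0.14 with upper-quartile scaling, at -0.12 with library totals, and at -0.05 with the CPM filter and without both libraries. Leaving out 1 library gave Foxj2 values from -0.06 to 0.13. In the 7 pathway lists added up, 62 genes were lower, against 40 at a threshold of 0.01, and 32 were higher, within 1.5 times that under all alternatives. Upper-quartile scaling moved the median of all genes to -0.17 and the upward share of calls to 38.1%, and library totals to -0.15 and 39.2%, against -0.01 and 48.2%. The causes were not tested. Foxc2 in IP (0 to 11 counts) and Foxd3 in input (0 to 5 counts) rest on few counts.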
